A study of Mus musculus with 16 samples.

Results

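The 10 genes described here are the Notch receptor genes Notch1, Notch2 and Notch3, the ligand genes Jag1, Jag2 and Dll1, the target genes Hes1, Hey1 and Heyl, and the receptor-modifying gene Lfng. They were chosen by name as a set of ligands, receptors and targets of the Notch pathway, and are 10 of the 23337 genes in the deposited count tables. All 10 were well enough counted to be tested, among 16287 genes that passed the filter on low counts. The study followed the germ of the mouse first molar, the embryonic tooth primordium in which the cusps of the crown take shape. Poly(A) RNA was sequenced from 8 libraries labelled upper first molar and 8 labelled lower first molar, 1 of each at every 0.5 days from ED14.5 to ED18.0 (ED, embryonic day). All embryos were of wild-type genotype and of CD1, an outbred mouse strain. Per the labels, both first molar germs of a jaw were pooled from 1 male embryo, which gave the upper as well as the lower library of its stage, so that stage and embryo are 1 factor with no further replicate. Each germ holds epithelium, mesenchyme and small amounts of vessel, nerve and blood cells, and such bulk RNA cannot tell fewer cells of a type from less RNA per cell.

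Notch receptors are single-pass membrane proteins that are activated by ligands of the Jagged and Delta families on a neighbouring cell. Activation releases the intracellular part of the receptor by proteolysis, and this part enters the nucleus, binds the DNA-binding protein Rbpj and recruits Mastermind coactivators to genes of the Hes and Hey families, which encode transcriptional repressors. Fringe proteins such as Lfng add sugars to the receptor and thereby change which ligands it answers. In mouse teeth, Notch genes are known to be expressed in separate layers of the epithelium and in the mesenchyme, and Jag2 is known to be needed for normal molar crown shape and enamel formation.

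Several measures of the libraries bear on how the labels are read. The libraries labelled upper held 33146758 to 38584429 gene counts and those labelled lower 35918529 to 44565205. All embryos were labelled male, but Ddx3y, Eif2s3y, Kdm5d and Uty, 4 genes of the Y chromosome, summed to 2 counts over the 16 libraries, while Xist, which is transcribed from the inactive X chromosome of females, had 1499 to 1831 CPM (counts per 1000000 gene counts) in the libraries labelled upper against 432 to 1928 CPM in those labelled lower. The lowest Xist values, 432 and 542 CPM, were those of the libraries labelled lower ED14.5 and ED15.0, whose labelled upper partners of the same embryos by the labels had at least 1499 CPM. Pou3f3, a transcription factor gene of the upper jaw, was low at every half-day stage (ED14.5, ED15.5, ED16.5 and ED17.5) and high at every whole-day stage (ED15.0, ED16.0, ED17.0 and ED18.0) under both labels. It had 4.45 to 10.1 CPM at half-day stages and 60.1 to 132 CPM at whole-day stages. Since a gene of the upper jaw alternated within both labels, whether the label marks the tooth cannot be told from these data. The labelled stage is in the same doubt, and whether the label comparison is also one of age cannot be told. A library is named by its label throughout. The half-day and whole-day libraries are compared as a grouping that was taken up because Pou3f3 alternated in these data, so its own alternation is given without a test. Markers of both main tissues were present, with 8 of 8 dental epithelium markers and 8 of 8 dental mesenchyme markers at 1 CPM or more in at least 1 library and above 0 counts in all 16 libraries. The flow cell differed between the labels, so the label and the flow cell cannot be told apart.

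Promoter sequences, from 250 bases before to 50 bases after the start of the gene in RefSeq (build GRCm38.p6), were matched for 7 of the 10 members. The targets Hes1, Hey1 and Heyl had no matched sequence and were not searched. Of the 7, 3 are shown. Jag1 and Jag2 were taken because the 2 ligands differed between the labels in opposite directions. Lfng was taken because it alone of the 7 had the letters TGGGAA, the core of the Rbpj binding motif, in its window. TGGGAA was searched on both strands and occurs in 25.6% of the 32851 promoters in the table. In Lfng it was found once on each strand, as 1.81% of all promoters have it, beginning 135 and 108 bases before the RefSeq start. The first match is written TTCCCA and both are in capitals. The Lfng window is chr5:140607091-140607390 on the plus strand, the Jag1 window chr2:137116471-137116770 on the minus strand and the Jag2 window chr12:112929446-112929745 on the minus strand, all written 5′ to 3′ on the strand of the gene. The Jag2 window was 86.0% G or C with 63 CG pairs, and 0.0304% of all promoters had at least as many, while the Jag1 window was 55.7% G or C with 22 CG pairs, a number reached by 23.1%. The gene spans given below are from the GENCODE M21 annotation and have other starts. Against those spans the Jag2 window lies wholly inside the gene, while the Jag1 and Lfng windows lie across its start. The Jag1 and Jag2 windows are therefore not at like places in the 2 genes.
Lfng: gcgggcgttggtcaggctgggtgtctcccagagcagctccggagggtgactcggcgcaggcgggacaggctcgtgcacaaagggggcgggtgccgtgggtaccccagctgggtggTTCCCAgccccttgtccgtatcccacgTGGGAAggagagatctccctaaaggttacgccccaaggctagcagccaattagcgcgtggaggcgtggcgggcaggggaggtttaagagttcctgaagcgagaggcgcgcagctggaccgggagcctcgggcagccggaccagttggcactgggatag
Jag1: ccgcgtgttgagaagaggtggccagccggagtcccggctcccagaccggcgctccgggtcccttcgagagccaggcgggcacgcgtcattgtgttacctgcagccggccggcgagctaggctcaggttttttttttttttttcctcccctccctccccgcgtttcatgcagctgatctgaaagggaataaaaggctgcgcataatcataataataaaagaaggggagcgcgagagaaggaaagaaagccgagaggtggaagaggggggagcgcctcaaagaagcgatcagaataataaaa
Jag2: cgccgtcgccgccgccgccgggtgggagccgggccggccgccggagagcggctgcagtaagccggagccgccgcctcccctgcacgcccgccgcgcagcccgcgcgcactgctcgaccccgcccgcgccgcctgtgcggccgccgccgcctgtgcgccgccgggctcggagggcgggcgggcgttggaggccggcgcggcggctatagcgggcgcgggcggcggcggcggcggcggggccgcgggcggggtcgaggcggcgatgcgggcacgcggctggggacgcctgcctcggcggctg

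Levels of different genes were compared as CPM per kb of exon, with exon lengths from GENCODE M21 on GRCm38. Averaged over the 16 libraries the order was Notch2, Notch3, Lfng, Hes1, Jag1, Jag2, Notch1, Hey1, Heyl and Dll1. Notch2 averaged 32.2 ± 6.91 CPM per kb (SD, n = 16) and Dll1, a Delta-family ligand, 1.42 ± 0.459. Notch2 was above Notch3 in 4 of 8 libraries labelled upper and in 8 of 8 labelled lower. The middle of the order was close. Notch3 was above Lfng in 7 of 16 libraries, Lfng above Hes1 in 9, Hes1 above Jag1 in 9, Jag1 above Jag2 in 10 and Notch1 above Hey1 in 10, and over all 16 libraries these means differed by less than the larger SD of the pair. Jag2 was above Notch1, Hey1 above Heyl and Heyl above Dll1 in 16 of 16 libraries. The order also differed between the labels, and some of these neighbours were apart within a label. Jag1 was above Jag2 in 8 of 8 libraries labelled upper and in 2 of 8 labelled lower, Notch3 above Lfng in 7 of 8 labelled upper and 0 of 8 labelled lower, and Lfng above Hes1 in 1 of 8 labelled upper and 8 of 8 labelled lower. In libraries labelled upper, Notch3 (26.5 ± 2.55 CPM per kb), Notch2 (26.4 ± 4.73), Hes1 (26.2 ± 4.16) and Jag1 (25.8 ± 2.48) were the 4 highest, whereas in those labelled lower Notch2 (38.0 ± 1.79), Lfng (26.9 ± 3.28), Notch3 (21.7 ± 1.62) and Jag2 (20.5 ± 2.96) were (SD, n = 8 each).

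**Figure D1:**
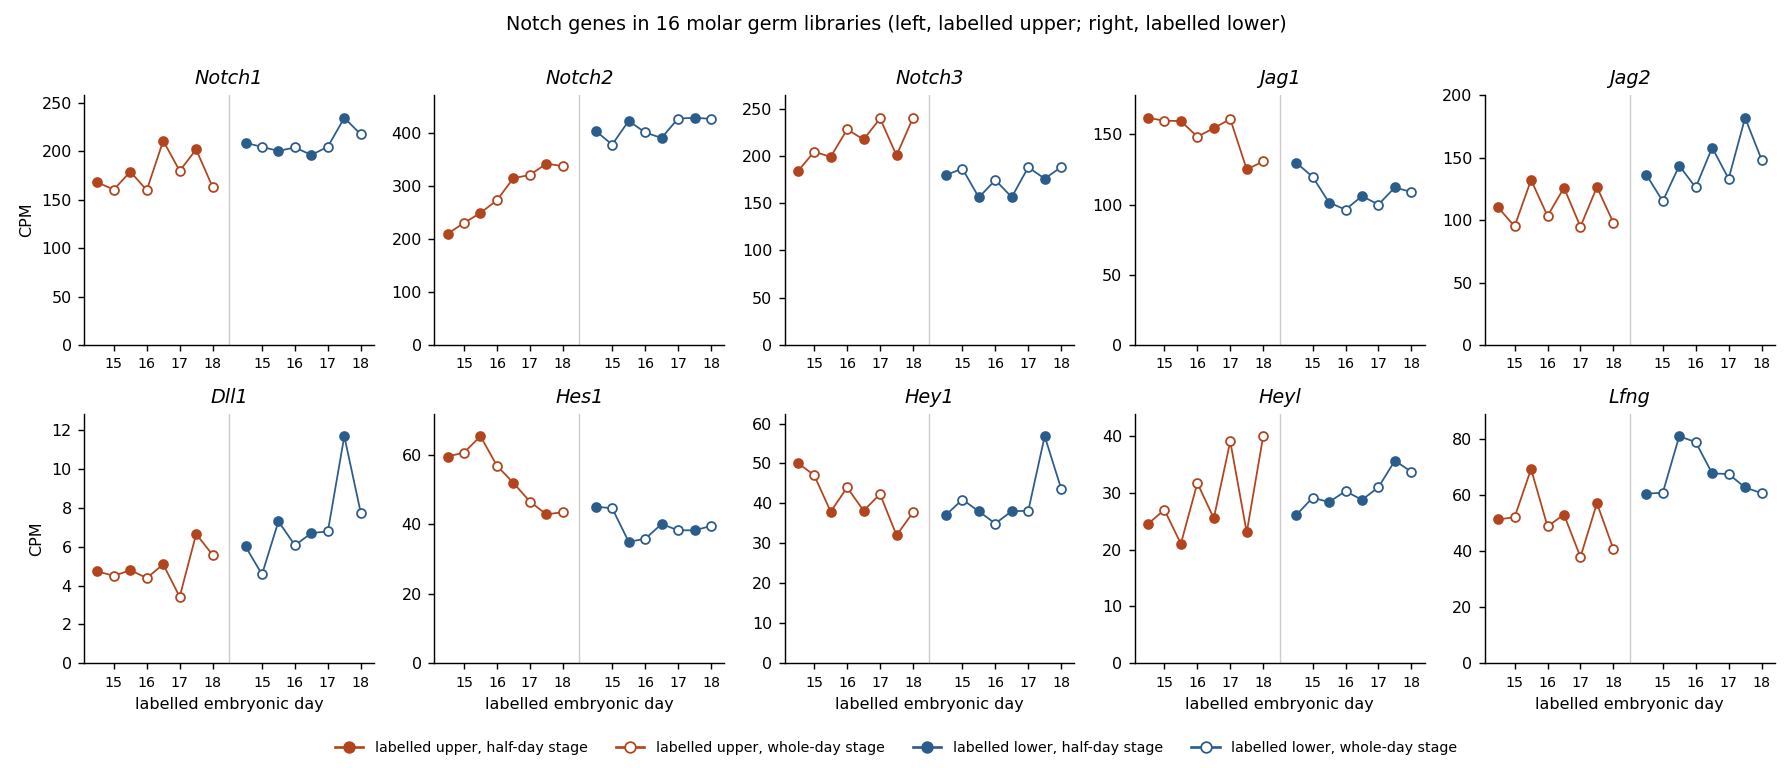
Level in CPM of each Notch gene (1 panel each, axes from 0) against the labelled embryonic day, with the 8 libraries labelled upper on the left and the 8 labelled lower on the right of each panel; filled points are half-day and open points whole-day stages, and each point is 1 library. Notch2 climbs in the libraries labelled upper while it stays between 377 and 428 CPM in those labelled lower, and Jag2 zigzags under both labels.

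Libraries labelled upper were first compared with those labelled lower, as a comparison of labels that is not shown to be one of teeth. The pairs of libraries called embryos below are those of the labels. Overlap of groups and direction within pairs are given as description throughout, since their share over all genes was not counted. Of the 10 Notch genes, 8 differed: Notch3, Jag1 and Hes1 were higher in libraries labelled upper, and Notch1, Notch2, Jag2, Dll1 and Lfng were lower. Among all 16287 genes tested, 18.1% were higher in libraries labelled upper and 18.1% were lower in them, that is, higher in those labelled lower. Receptors and ligands each split between the directions, and the median log2 difference (labelled upper minus labelled lower) was -0.15 over the members and 0.01 over all genes. Adjusted p-values below come from edgeR's quasi-likelihood test, adjusted by Benjamini and Hochberg's method over all genes tested. All 8 calls held in each of the 14 other settings tried, including the fit with the embryo as a block and the fit without the libraries labelled lower ED14.5 and ED15.0. No label had replicates beyond its 8 stages, so these p-values measure scatter about a smooth curve over stage.

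Among the receptors, Notch2 (chromosome 3, 98013527 to 98150361) differed most. It had 209.5 CPM in the lowest, 294 in the median and 342 in the highest library labelled upper, against 377, 413 and 428 CPM in those labelled lower. The groups did not overlap, and the library labelled upper was the lower of the pair in 8 of 8 embryos. The log2 difference was -0.54 ± 0.06 (SE), adjusted p = 1.88e-05. Notch3 (chromosome 17, 32120820 to 32166852), the receptor known from smooth muscle and pericytes of vessels, had the opposite sign. Its lowest, median and highest values were 184, 211 and 240.3 CPM in libraries labelled upper and 156, 178 and 188 CPM in those labelled lower. Only the ED14.5 library labelled upper lay within the labelled lower range, and Notch3 was higher in the library labelled upper in 8 of 8 embryos (log2 difference 0.29 ± 0.06, adjusted p = 0.00139). Notch1 (chromosome 2, 26457903 to 26516663), the receptor best known from epithelial and blood cell fates, was slightly lower. It had 160.0, 174 and 211 CPM in libraries labelled upper against 196, 205 and 235 CPM in those labelled lower. The ED16.5 and ED17.5 libraries labelled upper overlapped the labelled lower range, and the library labelled upper was lower in 7 of 8 embryos (log2 difference -0.23 ± 0.06, adjusted p = 0.00656). The ratio of Notch2 to Notch3, chosen after the values were seen and given per kb, was 0.844 to 1.28 in libraries labelled upper and 1.52 to 2.03 in those labelled lower.

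The ligands also went in both directions. Jag1 (chromosome 2, 137081456 to 137116644) had 125 CPM in the lowest, 157 in the median and 162 in the highest library labelled upper, against 96.4, 108 and 130.0 CPM in those labelled lower. Only the ED17.5 library labelled upper fell below the highest library labelled lower, and Jag1 was higher in the library labelled upper in 8 of 8 embryos (log2 difference 0.46 ± 0.06, adjusted p = 3.34e-05). Jag2 (chromosome 12, 112907819 to 112929776) had 94.7, 107 and 132 CPM in libraries labelled upper and 115, 140.0 and 182 CPM in those labelled lower. These ranges overlapped, but the library labelled upper was lower in 8 of 8 embryos (log2 difference -0.36 ± 0.10, adjusted p = 0.0119). Dll1 (chromosome 17, 15367354 to 15376872) was the least abundant member, at 122 to 226 counts in libraries labelled upper and 204 to 468 counts in those labelled lower. It had 3.42, 4.76 and 6.66 CPM in libraries labelled upper against 4.58, 6.75 and 11.7 CPM in those labelled lower, and was lower in 8 of 8 embryos (log2 difference -0.52 ± 0.15, adjusted p = 0.0138). The ratio of Jag2 to Jag1, also chosen after the values were seen and given per kb, lay below 1 in all 8 libraries labelled upper, with a median of 0.604, and above 1 in 6 of 8 labelled lower, with a median of 1.13. The 2 libraries labelled lower with a ratio below 1 were those of ED14.5 and ED15.0, which also had the lowest Xist; what part that difference plays was not tested.

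**Figure D2:**
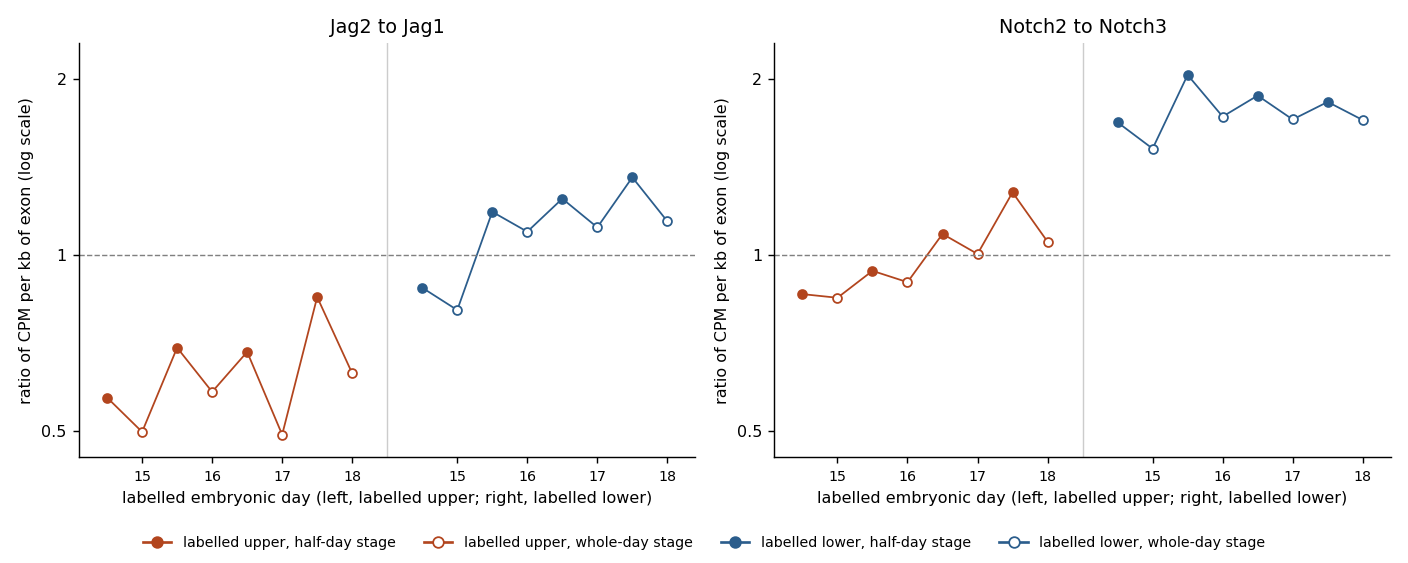
Ratio of Jag2 to Jag1 (left) and of Notch2 to Notch3 (right) in each library, from CPM per kb of exon on a log axis, against the labelled embryonic day, with libraries labelled upper left of the line and those labelled lower right of it. The Jag2 to Jag1 ratio is 0.492 to 0.846 in libraries labelled upper and 0.804 to 1.36 in those labelled lower; the dashed line marks equal levels.

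Of the targets, Hes1 alone differed between the labels by the test. Hes1 (chromosome 16, 30064384 to 30067796), a repressor gene that is widely used as a read-out of Notch activity, had 42.9 CPM in the lowest, 54.4 in the median and 65.4 in the highest library labelled upper, against 35.0, 38.9 and 45.1 CPM in those labelled lower. It was higher in the library labelled upper in 8 of 8 embryos, and the ranges overlapped only through the ED17.5 and ED18.0 libraries labelled upper, which lay below the ED14.5 library labelled lower (log2 difference 0.43 ± 0.07, adjusted p = 0.000355). Hey1 (chromosome 3, 8663359 to 8667256) averaged 41.2 ± 5.84 CPM in libraries labelled upper and 41.0 ± 6.91 CPM in those labelled lower (SD, n = 8 each), a log2 difference of 0.01 ± 0.11 with an adjusted p of 0.949. Heyl (chromosome 4, 123233556 to 123249875) averaged 29.0 ± 7.21 CPM in libraries labelled upper and 30.4 ± 3.07 CPM in those labelled lower (SD, n = 8 each), a log2 difference of -0.07 ± 0.11 with an adjusted p of 0.654. Lfng (chromosome 5, 140607320 to 140615545), the fringe glycosyltransferase whose promoter is shown above, had 37.8, 51.6 and 69.2 CPM in libraries labelled upper against 60.4, 65.0 and 80.9 CPM in those labelled lower. Its ranges overlapped through the ED15.5 library labelled upper alone, and it was lower in the library labelled upper in 8 of 8 embryos (log2 difference -0.39 ± 0.09, adjusted p = 0.00393).

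Markers of the tissues moved with the label as well. The summed level of the 8 dental mesenchyme markers was 1944 to 2626 CPM in libraries labelled upper against 1290.3 to 2095 CPM in those labelled lower, with 5 of 8 markers higher and 0 lower by the test. The sum of the 8 dental epithelium markers was 2750.1 to 4751 CPM in libraries labelled upper against 3728 to 5620 CPM in those labelled lower, with 1 of 8 higher (Krt14) and 4 lower (Cdh1, Shh, Sp6 and Trp63). The 8 mural cell markers, which name the vessel wall cells, summed to 384 to 518 CPM in libraries labelled upper. They summed to 457 to 580 CPM in those labelled lower, and 4 of 8 were lower in libraries labelled upper and 0 higher. The 10 endothelial markers summed to 433 to 510.5 CPM in libraries labelled upper against 468 to 532 CPM in those labelled lower, with 1 higher and 4 lower. Markers of other tissues differed as well, some by more. Of 8 cornifying oral epithelium markers 5 were lower and 0 higher, with a median log2 difference of -1.87 and the largest for Cnfn (-5.47 ± 0.62, adjusted p = 1.65e-05). They summed to 107.8 to 525.6 CPM in libraries labelled upper against 200.3 to 1607 CPM in those labelled lower. All 5 macrophage markers in the files were lower, summing to 43.3 to 71.2 CPM in libraries labelled upper against 54.5 to 113 CPM in those labelled lower. Of 6 neuron markers 3 were lower and 1 higher (Elavl4), of 5 skeletal muscle markers tested 1 was higher (Myod1) and of 6 Schwann cell markers 0 were called. The neuron marker Isl1 and the muscle marker Pax7 were at 0 in at least 1 library and under 1 CPM in all, and no other marker was at 0 in any library. The part of these tissue differences in the Notch differences was not tested.

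**Figure D3:**
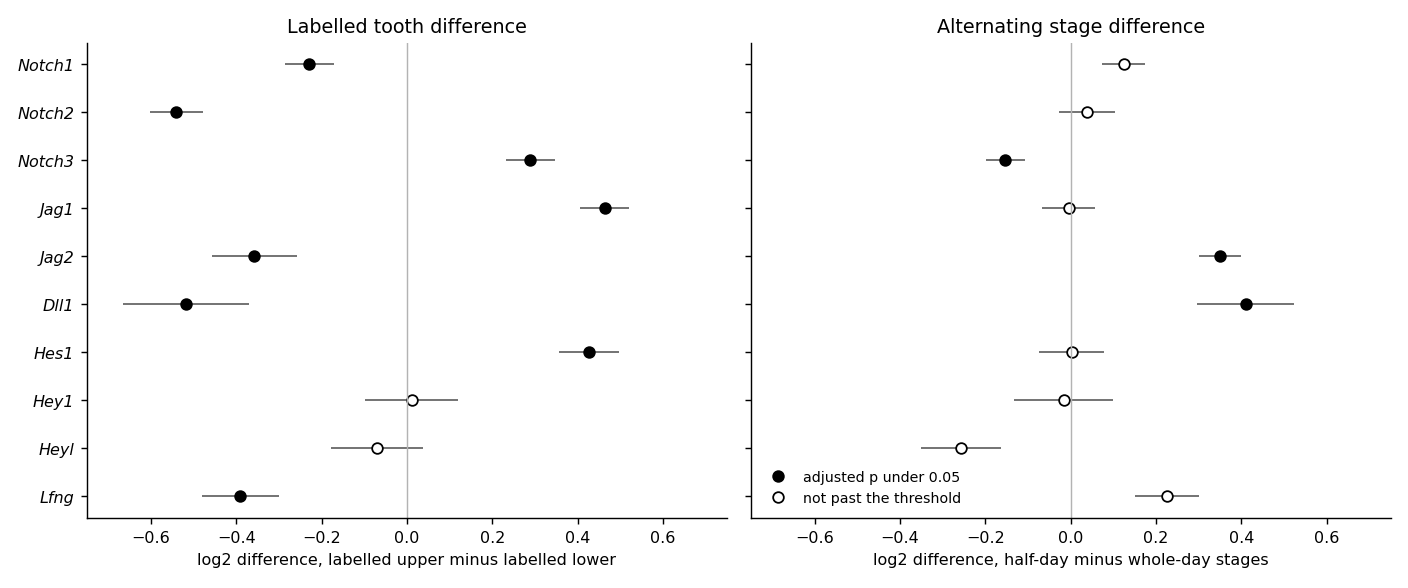
Log2 difference of each Notch gene with its standard error (bars), between labelled upper and labelled lower libraries (left) and between half-day and whole-day stages (right), from edgeR fits over 16 libraries; filled points have an adjusted p under 0.05. On the left Notch3, Jag1 and Hes1 lie right of 0 and Notch1, Notch2, Jag2, Dll1 and Lfng left of it, and on the right Jag2 and Dll1 lie right of 0 and Notch3 left of it.

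Half-day stages were next compared with whole-day stages over both labels, with the label and a smooth curve over stage in the fit. Jag2 and Dll1 were higher at half-day stages and Notch3 was lower, while the other 7 members did not pass the test. Among all genes tested, 5.5% were higher at half-day stages and 7.04% were lower, that is, higher at whole-day stages. By their labels half-day and whole-day stages are different embryos, and the grouping follows Pou3f3, so the jaw the tissue came from, the embryo, its dissection and its stage cannot be told apart. Each sequencing lane held 2 half-day and 2 whole-day libraries.

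Jag2 gave the clearest alternation of the 10. Its values at ED14.5, ED15.5, ED16.5 and ED17.5 were 110.1, 132, 126 and 127 CPM in libraries labelled upper and 136, 144, 158 and 182 CPM in those labelled lower. At ED15.0, ED16.0, ED17.0 and ED18.0 it had 95.0, 103, 94.7 and 97.9 CPM in libraries labelled upper and 115, 126, 133 and 149 CPM in those labelled lower. Within the libraries labelled upper the half-day and whole-day values did not overlap, and within those labelled lower only the half-day values of ED14.5 and ED15.5 lay below the highest whole-day value. Every one of the 14 steps between neighbouring stages, 7 per label, went up into a half-day stage or down out of one, which held for 2.73% of the genes tested. The log2 difference (half-day minus whole-day) was 0.35 ± 0.05 (SE) with an adjusted p of 0.000538 in edgeR's quasi-likelihood test. It was 0.35 ± 0.06 in libraries labelled upper alone (adjusted p = 0.00736), 0.32 ± 0.04 in those labelled lower alone (adjusted p = 0.00214) and 0.36 ± 0.04 with the lane in the fit (adjusted p = 2.27e-05). The call held in each of the 16 other settings tried, where the adjusted p reached at most 0.0189.

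Notch3 alternated in the opposite sense at every step. At half-day stages it had 184, 199, 217 and 201 CPM in libraries labelled upper and 179.8, 156, 156 and 176 CPM in those labelled lower. At whole-day stages it had 205, 228, 239.7 and 240.3 CPM in libraries labelled upper and 187, 174, 188 and 188 CPM in those labelled lower. The half-day library was the lower one at 14 of 14 steps, as it was for 4.53% of the genes tested and the half-day and whole-day ranges overlapped under each label. The log2 difference was -0.15 ± 0.05 (adjusted p = 0.0418 in edgeR's test). This call ended when any 1 of the 7 embryos of ED15.0 to ED18.0 was left out, with adjusted p-values of 0.0684 to 0.265 and log2 differences of -0.16 to -0.15, and in each label alone (-0.15, adjusted p = 0.106, in labelled upper and -0.13, adjusted p = 0.308, in labelled lower).

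Dll1 was higher in the half-day library at 13 of 14 steps. It averaged 6.63 ± 2.26 CPM at half-day stages and 5.39 ± 1.43 CPM at whole-day stages (SD, n = 8 each), and the ranges overlapped widely. The log2 difference was 0.41 ± 0.11 (adjusted p = 0.0301 in edgeR's test), and it was lost when the embryo of ED14.5, ED15.5, ED17.0, ED17.5 or ED18.0 was left out, with adjusted p-values of 0.0526 to 0.241 and log2 differences of 0.28 to 0.48. The call also ended without the libraries labelled lower ED14.5 and ED15.0 (0.37, adjusted p = 0.0582), in labelled upper alone (0.30, adjusted p = 0.294) and in labelled lower alone (0.47, adjusted p = 0.0663). The library labelled lower ED17.5, at 11.7 CPM, stood above every other. Without the embryo of that stage the log2 difference was 0.28 (adjusted p = 0.181).

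The remaining members did not alternate by the test. Heyl came nearest in libraries labelled upper, where it had 24.5, 21.0, 25.5 and 23.0 CPM at half-day stages and 27.0, 31.7, 39.0 and 39.9 CPM at whole-day stages, with no overlap. In libraries labelled lower it had 26.0, 28.4, 28.8 and 35.7 CPM at half-day stages and 29.1, 30.3, 31.0 and 33.7 CPM at whole-day stages, which overlapped. Over both labels the log2 difference of Heyl was -0.26 ± 0.09 (adjusted p = 0.0889), in labelled upper alone -0.48 ± 0.11 (adjusted p = 0.0241) and in labelled lower alone -0.01 ± 0.06 (adjusted p = 0.98), all from edgeR's test. Lfng had 51.2, 69.2, 53.0 and 57.0 CPM at half-day stages against 52.0, 48.7, 37.8 and 40.7 CPM at whole-day stages in libraries labelled upper, and a log2 difference of 0.22 ± 0.08 over both labels (adjusted p = 0.0659); DESeq2 placed it past the threshold (adjusted p = 0.0304). Notch1 was higher in the half-day library at 7 of 7 steps in libraries labelled upper and at 3 of 7 in those labelled lower, with a log2 difference of 0.12 ± 0.05 over both (adjusted p = 0.134). In labelled upper alone it was 0.23 ± 0.06 (adjusted p = 0.0489). Jag1, Hes1, Hey1 and Notch2 had log2 differences between -0.02 and 0.04.

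Whether the alternation differed between the labels was tested as an interaction. No gene passed with edgeR, which is 0% of the 16287 tested, with 964 at an unadjusted p under 0.05, whereas DESeq2 called 109. Heyl had the smallest p of the members, with a labelled upper alternation lower than the labelled lower one by a log2 difference of -0.47 ± 0.13 (adjusted p = 0.324). Lfng followed, at 0.34 ± 0.11 (adjusted p = 0.514). A difference in alternation of Heyl, Lfng or Notch1 between the labels was therefore not shown. For Jag2 the interaction was 0.09 ± 0.09 and for Notch3 -0.05 ± 0.09, both with an adjusted p of 1.

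Epithelial and mesenchymal markers alternated too, and in opposite directions. In all, 7 of the 8 dental epithelium markers were higher and 0 lower at half-day stages, among them Krt5 (log2 difference 0.50 ± 0.06, adjusted p = 0.000122), Epcam (0.36 ± 0.05, adjusted p = 0.000203) and Shh (0.66 ± 0.10, adjusted p = 0.000884). Their summed level was 3536 to 4751 CPM at half-day and 2750.1 to 3679.6 CPM at whole-day stages in libraries labelled upper. In libraries labelled lower it was 4745 to 5620 CPM at half-day and 3728 to 4551 CPM at whole-day stages. Conversely, 5 of the 8 dental mesenchyme markers were lower and 0 higher at half-day stages, among them Lhx6 (-0.73 ± 0.10, adjusted p = 0.000331) and Msx1 (-0.50 ± 0.08, adjusted p = 0.000842). Their summed level was 1944 to 2321 CPM at half-day and 2326 to 2626 CPM at whole-day stages in libraries labelled upper, and 1290.3 to 1722 CPM at half-day and 1633 to 2095 CPM at whole-day stages in those labelled lower. Of the 8 mural cell markers Pdgfrb alone was called, lower at half-day stages (-0.35 ± 0.05, adjusted p = 0.000341), and 0 of 10 endothelial markers were called. Schwann cell markers alternated in both directions, among them Erbb3 (0.23 ± 0.06) and Mbp (0.24 ± 0.07) higher at half-day stages and Foxd3 (-1.22 ± 0.26) and Sox10 (-1.11 ± 0.23) lower. The neuron marker Elavl4 was lower (-0.42 ± 0.13, adjusted p = 0.0432), and 0 macrophage, muscle and cornifying epithelium markers were called. Jag2 and Dll1 had the direction of the epithelial list and Notch3 that of the mesenchymal list. Unlike that of Jag2, the calls of Dll1 and Notch3 ended when some single embryos were left out. The part of tissue content in these genes was not tested.

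**Figure D4:**
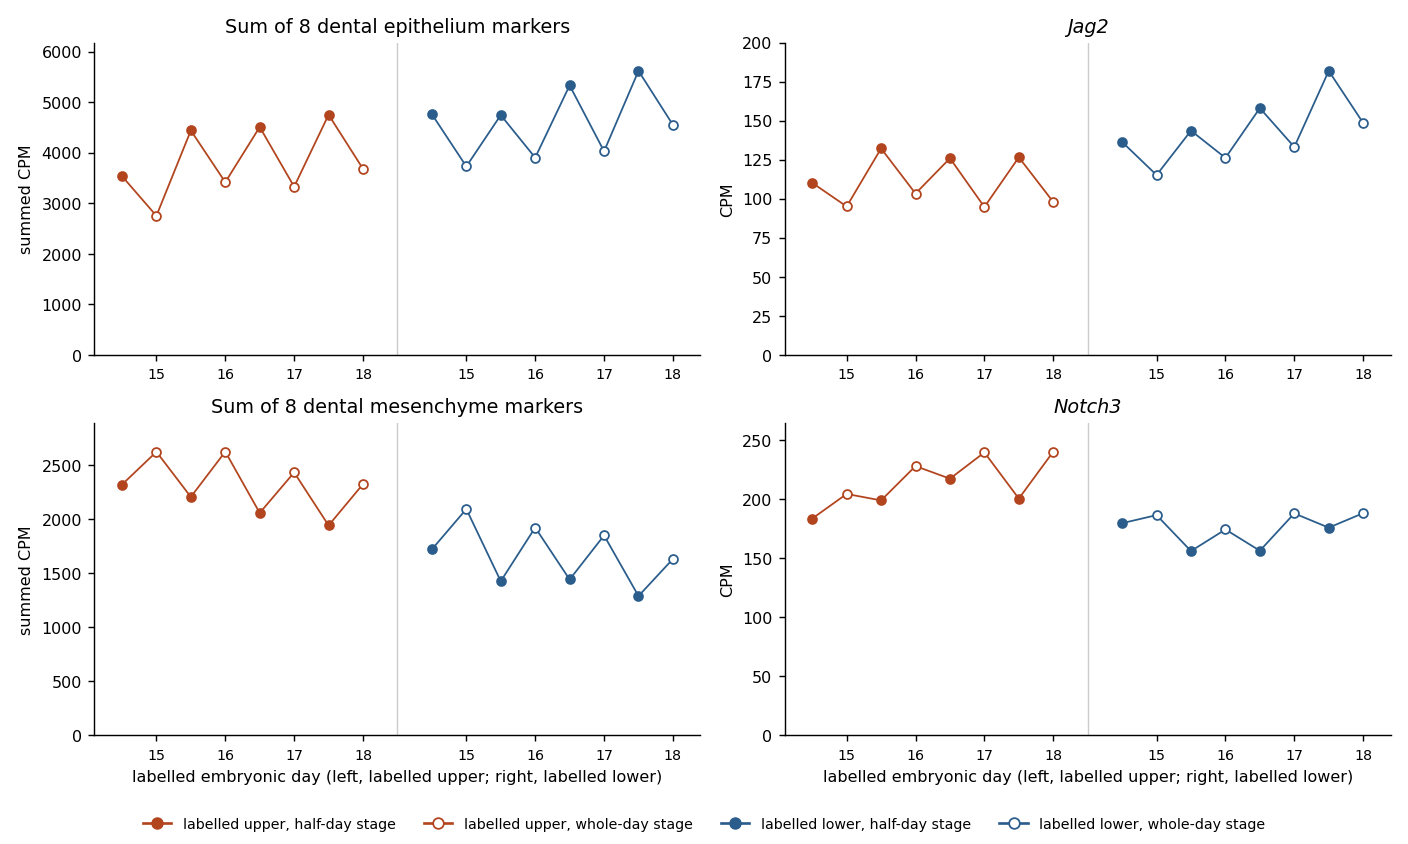
Summed CPM of 8 dental epithelium markers and of 8 dental mesenchyme markers (left) beside the CPM of Jag2 and Notch3 (right) in each library, against the labelled embryonic day, with libraries labelled upper left of the line, those labelled lower right of it, filled points for half-day stages and open points for whole-day stages. The epithelial sum and Jag2 are higher at each half-day stage than at the whole-day stages next to it, and the mesenchymal sum and Notch3 are lower.

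Changes over labelled stage were fitted as a linear slope in log2 per labelled embryonic day in the 8 libraries of each label. They follow the stage labels and are not shown to be a time course. In libraries labelled upper Notch2 rose and Hes1 fell, and the other 8 members did not pass the test. Of all genes tested, 3.72% rose and 2.41% fell in libraries labelled upper. Notch2 had 209.5, 230.0, 249, 273, 314, 320.2, 342 and 337 CPM from ED14.5 to ED18.0, a climb broken only at the last stage. Its slope was 0.21 ± 0.02 log2 per day (SE, adjusted p = 0.00296 in edgeR's test). Hes1 had 59.5, 60.7, 65.4, 56.9, 51.9, 46.6, 42.9 and 43.5 CPM over the same stages, and the 4 later values were all below the 4 earlier ones. Its slope was -0.18 ± 0.03 log2 per day (adjusted p = 0.0149), and the call ended without the ED18.0 embryo (slope -0.18, adjusted p = 0.0688). Of the other members, Jag1 had a slope of -0.09 ± 0.03 (adjusted p = 0.0885) and Hey1 of -0.13 ± 0.04 (adjusted p = 0.0802) in libraries labelled upper, and DESeq2 placed both past the threshold (adjusted p = 0.0358 for Jag1 and 0.0308 for Hey1). Jag1 also passed without the ED17.0 embryo (slope -0.11, adjusted p = 0.0395), and Notch3 without the ED17.5 embryo (slope 0.11, adjusted p = 0.032). The earlier 4 stages of a label shared 1 lane and the later 4 another, and with the lane in the fit 0 members were called in libraries labelled upper, with slopes of 0.17 for Notch2 (adjusted p = 0.3) and -0.10 for Hes1 (adjusted p = 0.582). Markers of other cells moved over the same stages. In libraries labelled upper 4 of 5 skeletal muscle markers tested rose, with a median slope of 1.33 log2 per day, and all 6 listed summed to 8.33 to 44.9 CPM at the 4 later stages against 1.12 to 2.82 CPM at the 4 earlier ones. Of 8 cornifying oral epithelium markers 4 rose, summing to 282 to 525.6 CPM at the later stages against 107.8 to 242 CPM at the earlier ones. Also rising were 3 of 8 mural cell markers (Abcc9, Kcnj8 and Rgs5), 1 of 6 neuron markers (Stmn2) and 1 of 5 macrophage markers (Lyz2), while 1 of 8 dental mesenchyme markers fell (Prrx1) and no marker of dental epithelium, endothelium or Schwann cells was called. The part of these cells in the slopes of Notch2 and Hes1 was not tested.

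In libraries labelled lower 0 of the 10 Notch genes passed the test for a slope, with 3 at an unadjusted p under 0.05, against 2.63% of all genes that rose and 1.49% that fell. DESeq2 called 1, Heyl. Notch2 had 403, 377, 422, 400.4, 390.0, 427, 428 and 426 CPM from ED14.5 to ED18.0, a slope of 0.04 ± 0.02 log2 per day (adjusted p = 0.275 in edgeR's test). Heyl was nearest to the threshold, with 26.0 CPM at ED14.5 and 33.7 CPM at ED18.0 and a slope of 0.11 ± 0.03 (adjusted p = 0.0536), and it passed without the ED16.5 embryo (adjusted p = 0.0454). With the half-day or whole-day type of the stage added to the fit, Jag2 (slope 0.13, adjusted p = 0.00226), Dll1 (0.27, adjusted p = 0.0157) and Heyl (0.11, adjusted p = 0.0354) passed the threshold. For Jag2 this is visible within each stage type: the half-day values climbed at every stage to 182 CPM at ED17.5, against 136 CPM at ED14.5, and the whole-day values climbed at every stage to 149 CPM at ED18.0, against 115 CPM at ED15.0.

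The slopes of the 2 labels were then compared directly, as labelled upper minus labelled lower. Notch2 was the only member whose slopes differed, by 0.17 ± 0.03 log2 per day (adjusted p = 0.0154 in edgeR's test), among 1.28% of genes tested. With the embryo as a block, the paired fit, 475 genes rather than 209 were called and Notch2 was still the only member. The Notch2 call ended without the ED14.5 embryo (difference 0.15, adjusted p = 0.173), without the ED15.0 embryo (0.18, adjusted p = 0.0633) and without the libraries labelled lower ED14.5 and ED15.0 (0.15, adjusted p = 0.251). Hey1, which fell in libraries labelled upper under DESeq2 and with the stage type in the fit, had a slope difference of -0.24 ± 0.07 (adjusted p = 0.147), and of -0.27 (adjusted p = 0.0235) once the stage type was in the fit.

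The other genes of the pathway were read from a list of 46 receptors, ligands, modifying enzymes, proteases, nuclear factors and ubiquitin ligases, all tested. Of these, 10 were higher and 10 lower in libraries labelled upper, with a median log2 difference of -0.01, beside the 18.1% of all genes in each direction. Of the 6 other receptor and ligand genes Dner, a non-canonical ligand gene known from neurons, was lower, at 1.90 to 4.34 CPM in libraries labelled upper against 5.77 to 18.9 CPM in those labelled lower (log2 difference -1.78 ± 0.23, adjusted p = 5.35e-05). Of the 6 neuron markers 3 moved with it. Nefl (-2.25 ± 0.34, adjusted p = 0.000165), Stmn2 (-1.54 ± 0.11, adjusted p = 3.89e-07) and Tubb3 (-0.75 ± 0.07, adjusted p = 2.85e-06) were lower too. Elavl4 went the other way (0.71 ± 0.16, adjusted p = 0.00282) and 2 were not called, with a median log2 difference of -0.10 over the 6. The 6 neuron markers summed to 39.4 to 55.6 CPM in libraries labelled upper against 65.3 to 93.1 CPM in those labelled lower, and their part in the Dner difference was not tested. Notch4 and Dll4, the receptor and ligand of endothelial cells, did not differ between the labels by the test. Of the 5 other Hes, Hey and target genes Hey2 was lower, at 5.56 to 15.2 CPM in libraries labelled upper against 11.6 to 25.6 CPM in those labelled lower (-1.08 ± 0.19, adjusted p = 0.000595), as was Hes6 (-0.20 ± 0.06, adjusted p = 0.0128). Of the 4 other fringe and O-glycosylation genes Pofut1, the fucosyltransferase of Notch receptors, was higher (0.10 ± 0.03, adjusted p = 0.0164), a call that held in 9 of 14 other settings.

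Other listed genes act on the receptor or the ligand protein. Of the 9 protease genes 3 were lower and 0 higher in libraries labelled upper: Adam10, which makes the first ligand-induced cut (-0.43 ± 0.05, adjusted p = 1.75e-05), and the gamma-secretase subunit genes Aph1b (-0.40 ± 0.04, adjusted p = 9.72e-06) and Ncstn (-0.12 ± 0.03, adjusted p = 0.0039). Adam10 had 139.7 to 163 CPM in libraries labelled upper against 178 to 254 CPM in those labelled lower, without overlap. Of the 4 ubiquitin ligase genes that drive ligand uptake, Mib1 (-0.59 ± 0.13, adjusted p = 0.00267) and Neurl1b (-0.46 ± 0.07, adjusted p = 0.000233) were lower and Mib2 (0.21 ± 0.05, adjusted p = 0.00813) was higher. Of the 8 receptor turnover genes Dtx4 was lower (-0.52 ± 0.09, adjusted p = 0.000535), while Numbl (0.37 ± 0.08), Dtx1 (0.36 ± 0.13), Dtx3 (0.22 ± 0.07) and Dtx2 (0.21 ± 0.05) were higher. The Dtx1 call held in 9 and the Dtx3 call in 12 of 14 other settings.

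Of the 10 genes of the nuclear complex and its corepressors 4 were higher and 1 lower in libraries labelled upper. Maml3, a Mastermind coactivator (0.40 ± 0.05, adjusted p = 6.91e-05), Tle4 (0.25 ± 0.05, adjusted p = 0.00204), Rbpj (0.22 ± 0.04, adjusted p = 0.00177) and Tle1 (0.16 ± 0.05, adjusted p = 0.0197) were higher, Tle3 (-0.12 ± 0.04, adjusted p = 0.0229) was lower, and 5 did not pass. Tle genes encode corepressors that Hes proteins recruit. Rbpj, the DNA-binding protein through which all receptors act, had 139 to 169 CPM in libraries labelled upper against 124 to 143 CPM in those labelled lower. The Tle1 call held in 11 and the Tle3 call in 12 of 14 other settings. Over stage, 1 of the 46 genes rose and 1 fell in libraries labelled upper, Dtx4 and Fbxw7. These counts stand beside 3.72% of all genes that rose and 2.41% that fell, and the calls held in 5 (Dtx4) and 6 (Fbxw7) of 13 other settings. In libraries labelled lower 3 rose and 0 fell, beside 2.63% and 1.49% of all genes. They were Notch4, Neurl1b and Numb, and the last 2 calls held in 4 of 14 other settings each. The slope of Notch4 was 0.24 ± 0.04 log2 per day (adjusted p = 0.0125). That call ended with the lane in the fit (0.10, adjusted p = 0.432), without the ED14.5 embryo (0.27, adjusted p = 0.0657) and without the libraries labelled lower ED14.5 and ED15.0 (0.27, adjusted p = 0.135). The slopes of Notch4 differed between the labels by -0.30 ± 0.06 (adjusted p = 0.0383), a call that held in 5 of 14 other settings and ended in the paired fit with the embryo as a block (-0.30, adjusted p = 0.0547).

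**Figure D5:**
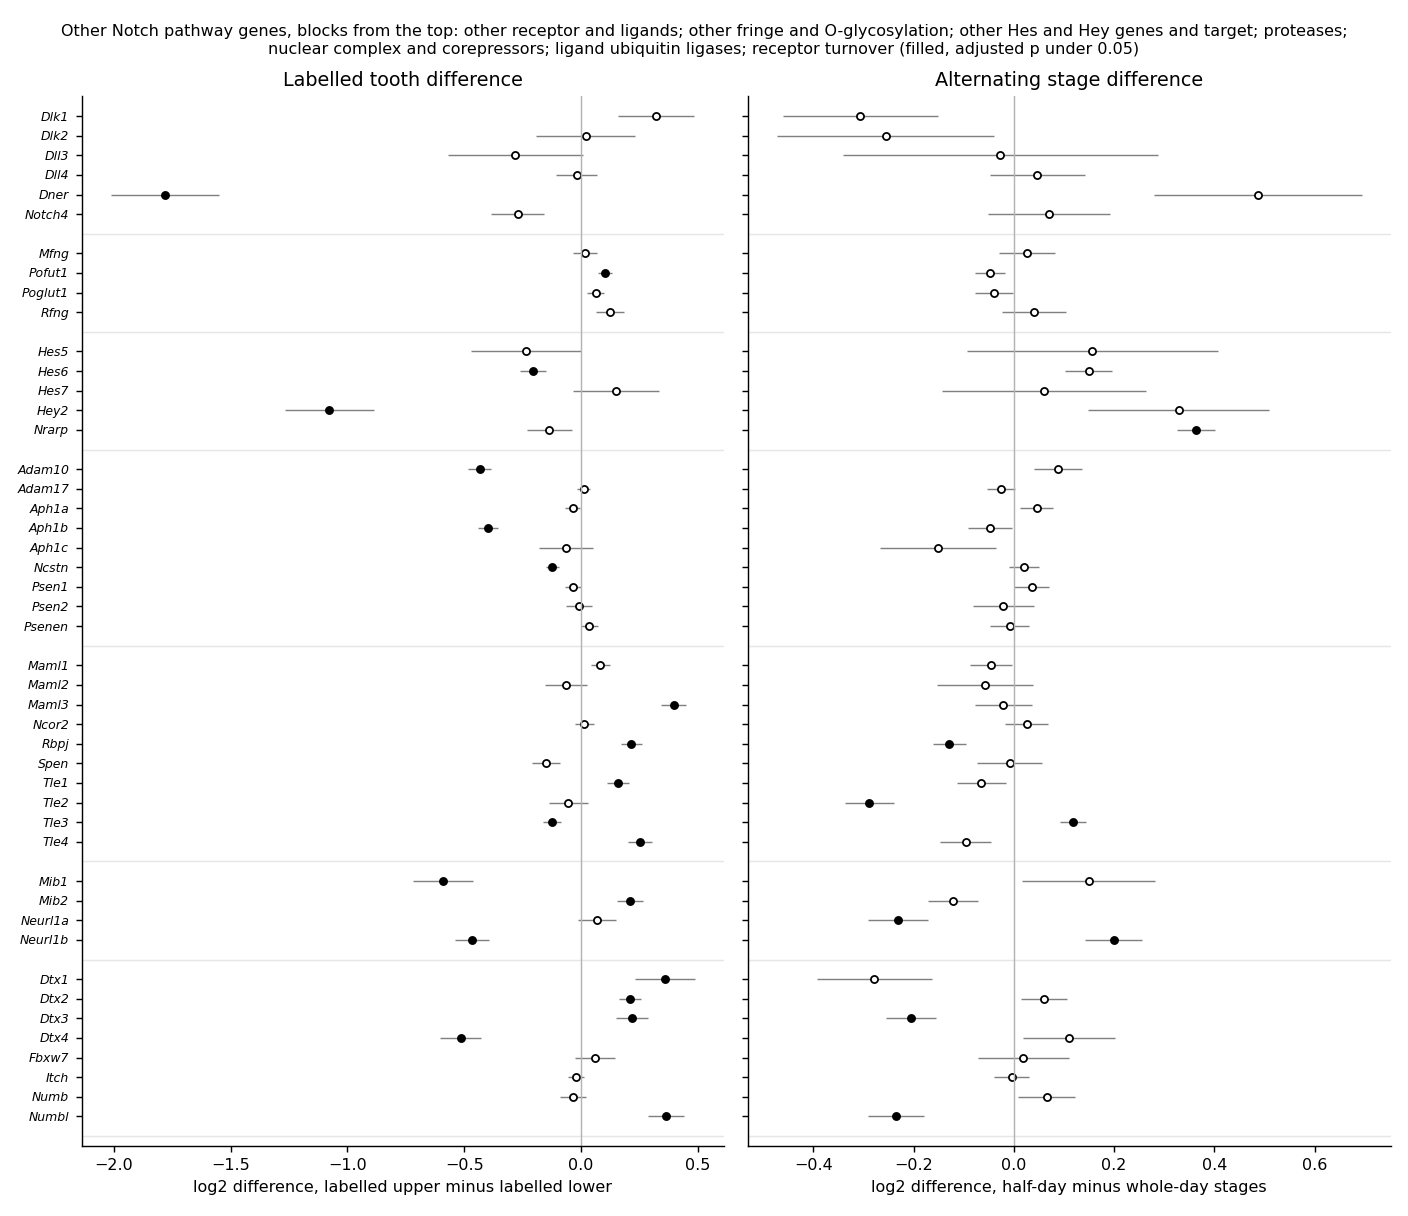
Log2 differences with standard errors (bars) of the 46 other Notch pathway genes, grouped by role, between labelled upper and labelled lower libraries (left) and between half-day and whole-day stages (right); filled points have an adjusted p under 0.05 in edgeR's test. Dner, at -1.78, and Hey2, at -1.08, lie farthest to the left in the left panel, and Nrarp, at 0.36, is the filled point farthest to the right in the right panel.

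Between half-day and whole-day stages 3 of the 46 genes were higher and 5 lower, beside 5.5% and 7.04% of all genes tested. Nrarp, a direct Notch target gene whose product limits the pathway, was higher, with 47.9, 52.3, 50.5 and 47.0 CPM at half-day stages and 39.7, 38.6, 38.0 and 36.1 CPM at whole-day stages in libraries labelled upper. In libraries labelled lower it had 57.6, 53.2, 53.4 and 52.7 CPM at half-day stages and 46.1, 44.5, 37.8 and 41.1 CPM at whole-day stages. The values did not overlap over all 16 libraries, and 14 of 14 steps went the same way as for Jag2. The log2 difference was 0.36 ± 0.04 (adjusted p = 4.62e-05 in edgeR's test), and the call held in 16 of 16 other settings. Tle3 (0.12 ± 0.03, adjusted p = 0.0108) and Neurl1b (0.20 ± 0.06, adjusted p = 0.0341) were also higher, and Tle2 (-0.29 ± 0.05, adjusted p = 0.00188), Numbl (-0.23 ± 0.06, adjusted p = 0.0142), Dtx3 (-0.21 ± 0.05, adjusted p = 0.0174), Rbpj (-0.13 ± 0.03, adjusted p = 0.0193) and Neurl1a (-0.23 ± 0.06, adjusted p = 0.0228) were lower. Tle2 held in 14 of the 16 other settings and the other 6 in 5 to 11. Without the ED17.0 embryo Nrarp was still called and these 7 were not, with adjusted p-values of 0.0555 to 0.295. Their log2 differences were then -0.28 to -0.13 for the 5 lower genes, 0.11 for Tle3 and 0.18 for Neurl1b. Hes1, a target of the same receptors, did not follow Nrarp, with a log2 difference of 0.00 ± 0.08 (adjusted p = 0.989).

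The genes whose levels tracked each member most closely over the 16 libraries were ranked by Pearson's r of log2 CPM among the tested genes with a mean of at least 500 counts. All libraries share their labels and embryos, so these values describe the same label and stage differences again. Notch2 was followed most closely by Peli2 (r = 0.98), Dlx3 (0.98) and Moxd1 (0.98), and Jag2 by Map3k1 (0.97), Pclo (0.96) and Pak6 (0.95). The closest genes were Trafd1 (0.96), Tgfbr2 (0.96) and Tbc1d2b (0.95) for Notch3 and Cdh3 (0.93), Etv3 (0.92) and Ctnna1 (0.92) for Notch1. They were Socs5 (0.95), Dapk1 (0.94) and Sema3d (0.94) for Jag1 and Acpl2 (0.93), Trp53inp2 (0.92) and Slc20a2 (0.91) for Dll1. For the targets they were Dusp7 (0.96), Fam43a (0.96) and Socs1 (0.95) with Hes1, Kdelc2 (0.95), Elf4 (0.93) and Igf2r (0.93) with Heyl, and Tmem129 (0.85), Col11a1 (0.84) and Rras2 (0.82) with Hey1. Lfng had Smndc1 (0.88), Rfwd3 (0.86) and Slc16a1 (0.86). No member appeared among the 3 closest genes of another member, but Dll1, with a mean under 500 counts, was not among the genes that could appear.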

How the data were processed

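The 16 poly(A) libraries were made with a kit that keeps no strand and read as pairs of 100 bases, per the labels' protocols. What the authors deposited are raw counts by gene symbol, 1 table a library. The submitters' processing notes name mm10, HTSeq 0.5.3p9, TopHat2 2.0.6 and Bowtie2 2.0.2; annotation and counting settings are not given in the sources used. Each table held 23337 genes and 5 summary lines, which were left out of totals and tests. Of the counts on genes, on no feature or ambiguous between genes, 12.6% to 15.1% lay on no annotated feature. Reads that were not aligned, not uniquely aligned or of low alignment quality are outside this share. Exons of Notch1, Notch2, Notch3 and Dll1 overlap those of other gene models in GENCODE M21, whose reads cannot be told apart without strand.

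CPM is the count per 1000000 gene counts of the library. Genes reaching 0.269 CPM (10 counts at the median depth) in at least 2 libraries entered the tests, made in R 4.3.3 with edgeR 4.0.16 (quasi-likelihood F test, TMM factors, Benjamini-Hochberg adjustment over 16287 genes, threshold 0.05). Standard errors were taken as the log2 value over the root of F. The label and alternation fits used all 16 libraries with a natural spline of stage of 3 degrees of freedom; the interactions were added to them. Log2 CPM used a prior count of 2. DESeq2 1.42.0, other scalings, a lane term and left-out embryos were alternatives, and the fits were tested on simulated data. The 120 pairs of libraries held no duplicate. Counting error was not separated from the spread between libraries, and for its level it is largest for Dll1, the member with the fewest counts.

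The labels pair the upper and lower library of a stage by embryo, and replicate numbers 1 to 8 follow the stages. Deviations of same-numbered libraries from their label means correlated at 0.121 to 0.279, and at 0.074 to 0.302 after a linear stage trend was taken out; after that, 3 of the 8 libraries labelled upper correlated best with the library labelled lower of their own number. The pairing rests on the labels.

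The 10 members are described in full, the other pathway genes by counts with values for those past the threshold in the label or alternation comparison, and the 3 genes most like each member by r, leaving out predicted gene models and small RNAs. The members, the gene lists, the grouping into half-day and whole-day stages and this rule were chosen with earlier results of these data known.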

Additional observations from a re-analysis of the deposited data

Results flagged for a closer look

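Of the 20 sets of 8 values formed by the 10 Notch genes and the 2 labels, 2 held a value far from the rest. The rule flags about 1 in 20 sets by chance where the 8 values are independent draws from a normal distribution. Here the 8 values were of different labelled stages, so the number of flags is not set against that rate. Both flags were in the library labelled lower ED17.5, so they are not independent. Dll1 had 11.7 CPM there against 7.75 CPM in the next highest library labelled lower, and Hey1 had 56.8 CPM against 43.7 CPM. The next highest library was that of ED18.0 for both genes.

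The stage slope of Notch2 was larger in libraries labelled upper than in those labelled lower by 0.17 log2 per day, by a test of the difference itself (adjusted p = 0.0154 in edgeR's quasi-likelihood test). It was 0.21 in libraries labelled upper and 0.04 in those labelled lower. The call on the difference ended without the ED14.5 embryo (0.15, adjusted p = 0.173) and without the ED15.0 embryo (0.18, adjusted p = 0.0633). It also ended without the libraries labelled lower ED14.5 and ED15.0 (0.15, adjusted p = 0.251). With the lane in the fit the labelled upper slope was 0.17 (adjusted p = 0.3), and the difference was not fitted with the lane.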

How the results depend on the processing

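Each of the 8 label calls held in every other setting, and no value of a called member or named pathway gene reversed its sign; a sign change between fits that both missed the threshold was not counted. With the embryo as a replicate block 6122 genes differed between the labels against 5902 without it, and the paired slope comparison called 475 genes against 209, with no other call of a member changed.

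Slope counts moved most. In libraries labelled upper 999 genes and 2 members were called, against 2051 and 4 with DESeq2, 2152 genes with the stage type in the fit, 2 genes and 0 members with the lane, and 192 to 1401 genes and 1 to 3 members when leaving out 1 embryo. In libraries labelled lower 670 genes and 0 members were called, against 1799 and 1 with DESeq2, 1789 and 3 with the stage type, 19 genes with the lane, 1 gene without the libraries labelled lower ED14.5 and ED15.0, and 34 to 758 genes and 0 to 1 members with 1 embryo left out. The slope comparison gave 595 genes with DESeq2, 1066 genes and 2 members with the stage type, 4 genes and 0 members without those 2 libraries (chosen after seeing the data), and 16 to 174 genes and 0 to 1 members without 1 embryo. The alternation called 2042 genes and 3 members, against 1345 genes in labelled upper alone, 1056 genes and 1 member in labelled lower alone, and 522 to 1831 genes and 1 to 2 members without 1 embryo; its difference between labels called 109 genes with DESeq2, 30 without those 2 libraries, and 0 to 36 without 1 embryo. Why these counts moved was not tested. Fits that leave libraries out hold fewer of them, and their counts rose in some cases and fell in others.

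There was 1 library per label and stage, and the part of this and of depth in the precision was not tested. Dll1, at 122 to 468 counts, had the fewest counts of the members and so the largest counting error for its level.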
